A study of Saccharomyces cerevisiae BY4741 with 12 samples.

Results

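Long antisense transcripts were taken as those of 1200 bp or more in the study's list of antisense transcripts that were higher in set2Δ than in WT budding yeast. There were 220 of them among 777 listed transcripts, or 28.3%. The other listed transcripts were 365 of intermediate length, over 650 bp, and 192 of 650 bp or less. The length is the width of each transcript as the study assembled it from the antisense reads of set2Δ cells, so its ends are ends of an assembly and not mapped start or stop sites. Just inside the limit lay the transcripts opposite LRO1 and UBP2, at 1201 and 1207 bp. Just outside it lay those opposite FRK1, AUS1 and NDD1, at 1190, 1189 and 1188 bp. A transcript is called here by the gene that the study paired with it, so "antisense MTR4" is the RNA from the strand opposite MTR4.

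The strains were all of the BY4741 background. The set2Δ strain lacked SET2 and carried the empty vector pRS415, whereas set2-Y149F and set2-Y236F were set2Δ cells that expressed the mutant protein from pRS415, so every mutant lacked chromosomal SET2. No plasmid is named for the WT, and the methods give YPD or SD as the medium without saying which strain had which, while the study's results call the medium of all strains rich. RNA of LEU2, the marker gene of pRS415, which BY4741 lacks, was at 6023 FPKM in set2Δ, 1775 in set2-Y149F, 1890 in set2-Y236F and 3209 in WT, so it did not set the WT apart from the strains with the plasmid. Cells were grown at 30 °C from an OD600 of 0.2 to 0.8, and polyadenylated RNA was sequenced with strand information in 3 libraries per strain, 12 in all. The deposited values are 1 mean FPKM (fragments scaled by transcript length and library size) per strain, without an SD and without a value per library, so none of the differences below carries a replicate test. As in any bulk sample, fewer cells that make a transcript and less of it per cell cannot be told apart.

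Set2 is the histone methyltransferase that adds all methyl groups to lysine 36 of histone H3 (H3K36) in the wake of elongating RNA polymerase II. The mark recruits the Rpd3S deacetylase, which keeps gene bodies deacetylated and closed to initiation from within. Without it, transcription can begin inside genes on either strand, which is known as cryptic transcription. The tyrosine mutants were made to separate the methylation states: set2-Y149F keeps the trimethyl mark and lacks the dimethyl mark, and set2-Y236F keeps the mono- and dimethyl marks and lacks the trimethyl mark. SET2 RNA, read as a check of the labels, was at 0.190 FPKM in set2Δ, 253 in set2-Y149F, 271 in set2-Y236F and 29.1 in WT, so that both point mutants held more SET2 RNA than the WT did.

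The 5′ ends of a few members are printed first, since most long antisense transcripts began within the body of the opposite gene. They were read from the RefSeq genome of build R64 on the strand of the transcript, 5′ to 3′. The 50 genomic bases before the assembled end are in lower case, and the first 50 bases of the transcript are in capitals. Antisense MTR4, on the minus strand of chromosome X (window chrX:344949-345048), had the largest difference of set2Δ from WT. Antisense RIM15 (chrVI:70457-70556, plus strand) was the second longest, antisense SCW11 (chrVII:441510-441609, plus strand) was also among the largest differences, and antisense FIG2 (chrIII:269601-269700, minus strand) lay opposite a gene whose own RNA differed.
MTR4 5′ end: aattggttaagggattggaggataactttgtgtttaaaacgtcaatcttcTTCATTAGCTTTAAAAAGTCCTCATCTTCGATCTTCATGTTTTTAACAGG
RIM15 5′ end: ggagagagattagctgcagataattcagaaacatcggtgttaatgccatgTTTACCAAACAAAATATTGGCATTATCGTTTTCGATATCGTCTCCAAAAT
SCW11 5′ end: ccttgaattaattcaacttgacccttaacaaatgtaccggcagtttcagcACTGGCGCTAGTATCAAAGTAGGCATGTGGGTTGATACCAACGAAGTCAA
FIG2 5′ end: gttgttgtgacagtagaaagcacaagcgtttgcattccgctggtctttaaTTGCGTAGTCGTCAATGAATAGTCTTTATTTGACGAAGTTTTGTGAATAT

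The 3′ ends are shown because many long antisense transcripts ran out of the gene into the region before its start codon. The last 100 bases of 4 members follow, all within the transcript and on its strand, with each TATATA in capitals. The windows are chrX:342412-342511 (minus strand) for MTR4, chrVI:74571-74670 (plus strand) for RIM15, chrXIV:307159-307258 (plus strand) for TDA7 and chrXI:646150-646249 (minus strand) for FLO10. MTR4 and RIM15 hold the motif, and TDA7 and FLO10 do not.
MTR4 3′ end: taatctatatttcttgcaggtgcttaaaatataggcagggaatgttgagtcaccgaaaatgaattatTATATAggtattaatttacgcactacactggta
RIM15 3′ end: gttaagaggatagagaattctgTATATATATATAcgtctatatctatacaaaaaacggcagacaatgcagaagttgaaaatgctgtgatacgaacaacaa
TDA7 3′ end: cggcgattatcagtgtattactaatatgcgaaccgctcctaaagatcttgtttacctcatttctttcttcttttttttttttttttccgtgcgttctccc
FLO10 3′ end: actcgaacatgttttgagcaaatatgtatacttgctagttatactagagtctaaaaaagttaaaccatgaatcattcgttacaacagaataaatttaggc

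In yeast, TATATA-like sequences are known as part of the signals that direct cleavage and polyadenylation of mRNA, and AATAAA-like sequences as another part of them. TATATA, which reads the same on both strands, was present in the last 100 bases of 37 of 220 long transcripts (16.8%). It was present in 11.0% of the intermediate transcripts, in 9.38% of the short ones and in 12.2% of all 777. Windows of the same length from the interior of the long transcripts held it in 3.23% of cases, and the 100 bases after the stop codons of 6008 RefSeq coding genes held it in 33.7%. The motif was found in 32 of the 139 members that reached past the start codon of the sense gene and in 5 of the 80 that ended within it. The last windows of the former lie mostly outside the coding region of the sense gene, and TATATA was not counted before RefSeq start codons. The place in the gene and the end of a transcript can thus not be told apart here. AATAAA, searched on the transcript's strand, was in 9.09% of last windows and 7.93% of interior windows. The TATA box motif TATAAA, on the transcript's strand, was in the 100 bases before the 5′ end of 17 members (7.73%), against 4.12% of interior windows and 12.6% of the windows before RefSeq start codons. A match describes these letters and not a site of initiation or polyadenylation. Base composition moved with the ends: the mean GC content in steps of 50 bases was 35.0% and 35.7% over the last 100 bases and 34.8% in the 50 bases beyond the 3′ end, against 39.0% to 39.4% in the steps from 300 to 200 bases before it. All 777 listed transcripts showed the dip too, at 36.1%, 36.6% and 35.2%, against 39.1% to 39.5% in the earlier steps.

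The members ranged from 1201 to 4289 bp, with a median of 1510 bp. They came from all 16 chromosomes, 108 of them from the plus strand, and lay opposite 215 different genes. PSD2, MET30, FLO11, BPT1 and ATG2 had 2 members each, so those pairs share a sense gene. Chromosomes XII and IV held 24 members each and chromosome XIV held 23. On chromosome IX, 16 of the 32 listed transcripts were long, among them both members opposite FLO11.

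Long antisense transcripts mostly began in the body of the opposite gene and ran out past its start codon. Positions were counted along the coding region of the sense gene in the RefSeq annotation, from 0% at the start codon to 100% at the end of the stop codon, for the 219 members whose gene is in that annotation. The 5′ end lay within the coding region in 181 of them (82.6%) and past the stop codon in 38. The share inside was 93.7% for intermediate, 88.0% for short and 89.1% for all listed transcripts. The median position of the 5′ end was 76.5%, near the end of the gene, and that of the 3′ end was -6.58%, just before its start.

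The 3′ end lay past the start codon in 139 members (63.5%), by 9 to 1695 bp with a median of 284 bp. The share was 36.9% for intermediate and 24.5% for short transcripts. The classes were formed by length, and a longer transcript can reach farther and cover more. These shares and the coverage below are thus in part set by the length limit. Both ends lay inside the coding region in 59 members, and 17 members covered the coding region entirely. The median member covered 62.2% of the coding region of its gene. The sense genes had a median coding length of 2271 bp, and 57 members were longer than the coding region they lay opposite.

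**Figure D1:**
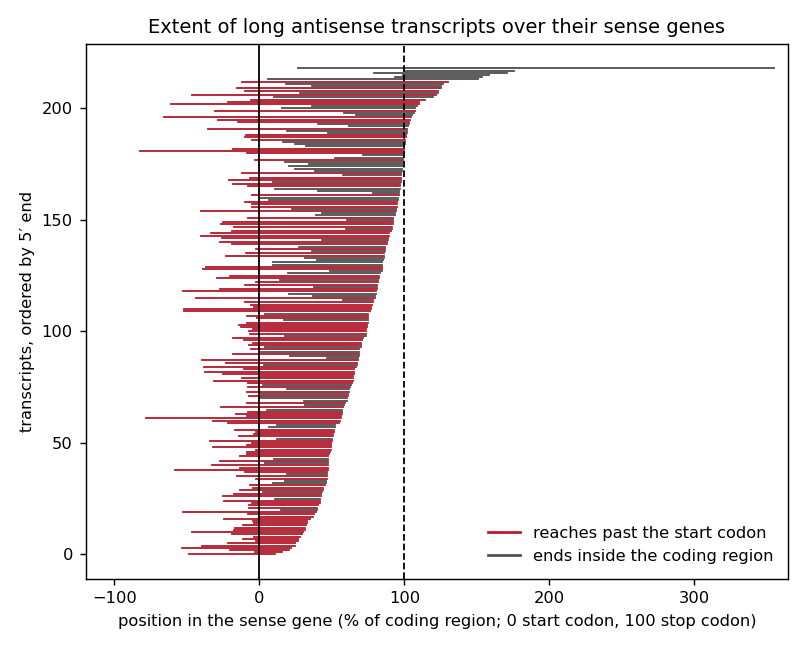
Extent of 219 long antisense transcripts over their sense genes, 1 line per transcript, ordered by the 5′ end. The x axis is the position in percent of the coding region, with the start codon at 0 (solid line) and the stop codon at 100 (dashed line). Red lines mark the 139 transcripts that reached past the start codon and grey lines the other 80, and most lines have their right end, the 5′ end, inside the gene.

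The longest members show these shapes. Antisense FLO5 (4289 bp, chrVIII:523697-527985, minus strand) began at 80.3% of the flocculin gene and ran 1695 bp past its start codon, the farthest of all. Antisense RIM15 (4164 bp, chrVI:70507-74670) covered 73.8% of the gene of this kinase of stationary phase entry and ended 243 bp past the start. Antisense PCA1 (3972 bp, chrII:792527-796498) began at 99.9% of the gene of this cadmium-exporting ATPase and left it by 322 bp. Antisense NUP1 (3507 bp, chrXV:507077-510583), opposite a nuclear pore protein, began beyond the stop codon and ended inside the gene. FLO5 has close relatives elsewhere in the genome, as have FLO10, FLO11, THI72, NRT1, THI21 and VTH2, and reads of such genes may be split between copies.

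No long member overlapped an annotated gene on its own strand, and 1 of all 777 did. The study had kept antisense and intergenic reads for the assembly. In 23 members (10.5%, and 5.28% of all listed transcripts) the 3′ end lay within 50 bp before an annotated gene on the same strand. Whether the edge of that gene set the assembled end was not tested. For 21 members more than 1 coding gene lay opposite. In 8 of 219 members the transcript covered another opposite gene more than the one it was paired with. Antisense POL1, for example, overlapped POL1 by 53 bp and AVT4 by 2077 bp, and antisense MDM36 overlapped MDM36 by 5 bp and YPR084W by 936 bp, so their names say little about what they cover.

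Long antisense transcripts were highest in set2Δ, intermediate in both point mutants and lowest in WT. Their median level was 10.1 FPKM in set2Δ, 3.57 in set2-Y149F, 3.54 in set2-Y236F and 1.04 in WT. The ranges were wide, at 0.408 to 107, 0.0779 to 50.3, 0.0820 to 52.9 and 0.0428 to 31.8 FPKM in the same strains. All 777 listed transcripts had medians of 3.98, 1.64, 1.62 and 0.464 FPKM, so the long ones were the more abundant in every strain, the WT included.

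The set2Δ mean was the highest of the 4 strains in 210 of 220 members (95.5%), as in 92.7% of all listed transcripts. The WT mean was the lowest in 216 (98.2%), as in 94.2% of all. Both point mutants lay between set2Δ and WT in 206 (93.6%), as in 86.9% of all. The list was chosen by the study for being higher in set2Δ than in WT in these same libraries. Each of these orders is therefore in part a condition of membership.

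**Figure D2:**
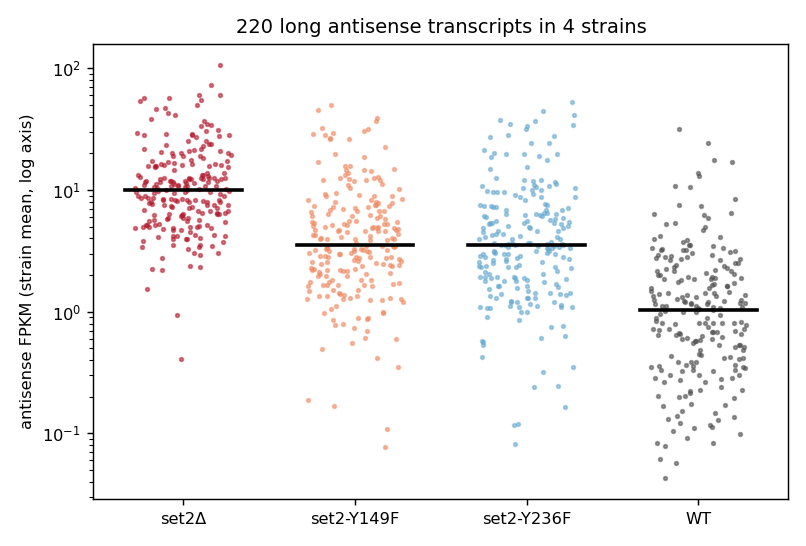
FPKM of the 220 long antisense transcripts in set2Δ, set2-Y149F, set2-Y236F and WT, on a log axis. Each point is 1 transcript as the mean of its strain and the black bar is the median, at 10.1, 3.57, 3.54 and 1.04 FPKM from left to right.

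A difference was called at 2-fold or more on the scale of log2(FPKM + 1), which counts a low transcript less than a plain ratio does. On that scale 214 of 220 members were higher in set2Δ than in WT, where 83.5% of all listed transcripts were called. Nothing is read from this count, because this contrast chose the list. The plain ratio of set2Δ to WT had a median of 9.74 in long, 7.82 in intermediate and 6.75 in short transcripts.

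Antisense MTR4 had the largest difference on this scale. It was at 56.8 FPKM in set2Δ, 6.35 in set2-Y149F, 3.68 in set2-Y236F and 0.809 in WT, a log2 difference of 5.00 and a ratio of 70.2 between set2Δ and WT. MTR4 is the RNA helicase that hands nuclear RNA to the exosome. Both point mutants were far nearer to WT than to set2Δ at this gene.

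Antisense RIM15 was at 73.2, 28.9, 34 and 2.69 FPKM in set2Δ, set2-Y149F, set2-Y236F and WT, a log2 difference of 4.33 between set2Δ and WT. Antisense TDA7 was at 47.2, 14.6, 12.6 and 1.43 FPKM, with a difference of 4.31. Antisense SCW11, opposite a cell wall protein, was at 30.9, 7.85, 6.85 and 0.801 FPKM, with a difference of 4.15. In all of these the point mutants held well over the WT level and less than the set2Δ level.

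The next were antisense HEL2 (27.2 FPKM in set2Δ against 0.642 in WT), TOK1 (20.2 against 0.352), BNI4 (20.5 against 0.428) and FLO10 (43.1 against 2.09). HEL2 encodes a ubiquitin ligase of ribosome quality control, TOK1 a potassium channel and BNI4 a protein that places chitin synthesis at the bud neck. By plain ratio the order was another, led by low WT values: antisense PMD1 was at 7.63 FPKM in set2Δ against 0.0567 in WT (134-fold) and antisense DNF3 at 12.8 against 0.112 (114-fold).

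Length and level went together. Members of 1200 to under 1500 bp (107), 1500 to under 2000 bp (74) and 2000 bp or more (39) had medians of 7.34, 10.5 and 27.2 FPKM in set2Δ, and of 0.791, 0.815 and 2.39 FPKM in WT. Across the 220 members Spearman's correlation between length and FPKM was 0.54 in set2Δ, 0.43 in set2-Y149F, 0.42 in set2-Y236F and 0.33 in WT. FPKM is already divided by length. The lengths were assembled from reads of set2Δ, so length and set2Δ level share libraries, and the relation is a description.

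**Figure D3:**
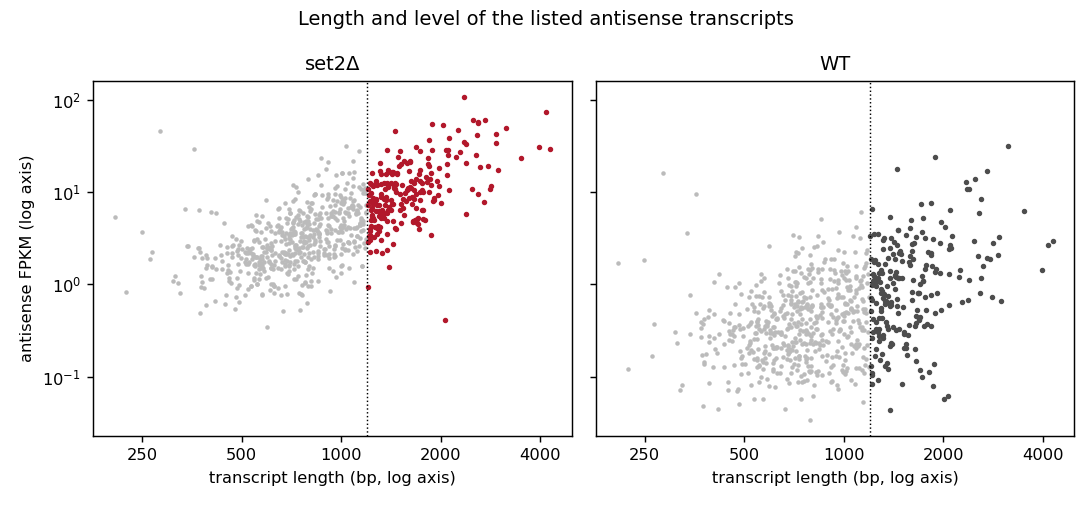
Transcript length in bp (x axis, log) against FPKM (y axis, log) of all 777 listed antisense transcripts in set2Δ (left) and WT (right). Coloured points are the 220 members of 1200 bp or more, right of the dotted line, and grey points the shorter ones. Longer transcripts had higher values in both strains, with a steeper cloud in set2Δ.

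In the point mutants, the question is how much of the set2Δ level is reached. These strains keep only some methylation states and also held more SET2 RNA than the WT, which cannot be told apart here. In set2-Y149F, 121 of 220 members (55%) were called higher than in WT, where 33.7% of all listed transcripts were. In set2-Y236F, 116 members (52.7%) were called, again where 33.7% of all were. No member was called lower than WT in either mutant, nor was any of the 777 (0.00%). The WT values helped to choose the list, so these counts are in part a condition of membership. The scale of log2(FPKM + 1) calls abundant transcripts more readily, and the long ones were the more abundant. The part of that level in these shares was not tested. They were 78.6% in each mutant with a pseudocount of 0.1, 5.45% and 6.82% with a pseudocount of 10, and 11.8% in each with the antisense medians set equal.

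Against set2Δ, 127 members (57.7%) were called lower in set2-Y149F cells and 126 (57.3%) in set2-Y236F, where 38.5% and 39.9% of all listed transcripts were. With a pseudocount of 10 the shares were 9.55% and 11.8%, and with equal antisense medians 6.82% and 15.0%. None was called higher than set2Δ in either point mutant, nor was any of the 777 (0.00%). The set2Δ values helped to choose the list, so these counts are in part a condition of membership.

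Set against each other, the 2 point mutants had like values at most long transcripts. On the scale of log2(FPKM + 1) no member was called between set2-Y149F and set2-Y236F, and none of the 777 was (0.00%). With a pseudocount of 0.1, which weighs low transcripts more, 3 members were called, and the plain ratio of set2-Y149F to set2-Y236F ran from 0.600 to 3.06. Their log2 differences ran from -0.67 to 0.75 with a median of 0.01, and the mean was higher in set2-Y149F in 113 of 220. Without values per library it cannot be said how small a difference would have been seen.

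The farthest apart on that scale are given with both values. Antisense MTR4 was at 6.35 FPKM in set2-Y149F cells and 3.68 in set2-Y236F, and antisense GRS2 at 12.6 and 7.23. In the other direction antisense MGR1 was at 12.1 FPKM in set2-Y149F cells and 19.7 in set2-Y236F, and antisense THI21 at 5.10 and 7.49. These members were chosen for being the extremes of 220.

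The part of the set2Δ level reached was expressed as a gain, the level of a point mutant above WT as a percentage of the level of set2Δ above WT. Its median over the members was 27.4% in set2-Y149F cells and 27.4% in set2-Y236F. With the antisense medians of the strains set equal, the medians were 49.8% and 49%. The mean of both mutants was under 20% in 73 members, from 20% to under 50% in 92, from 50% to under 80% in 37 and 80% or more in 18. The median of that mean was 27.2% for long, 30.3% for intermediate and 33.1% for short transcripts. The gains share the set2Δ and WT values, so their likeness between the mutants holds a part that is set by those values. Each gain is also divided by the difference of set2Δ from WT, the contrast that chose the list.

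**Figure D4:**
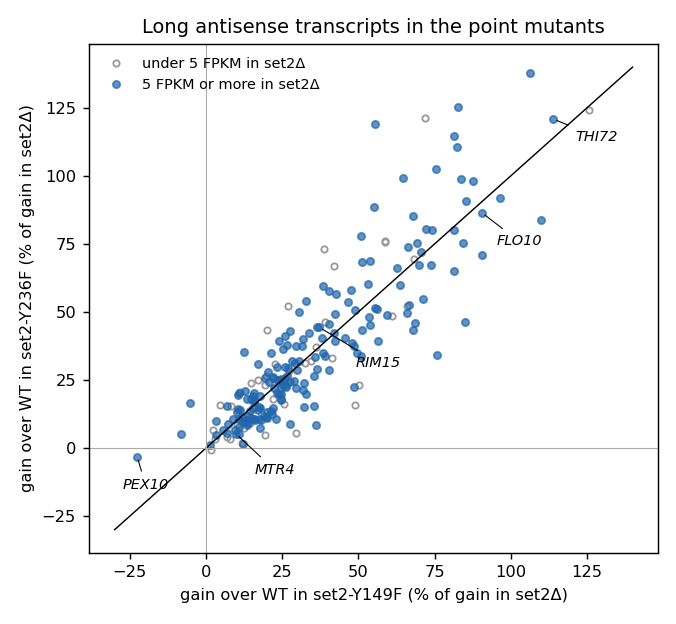
Gain over WT as a percentage of the gain in set2Δ, set2-Y149F on the x axis and set2-Y236F on the y axis, for the 220 members. Filled points had 5 FPKM or more in set2Δ, open points less, and the black line marks equal gains. Antisense MTR4 sits near the origin, RIM15 in the middle, FLO10 and THI72 at the upper right, and PEX10 below 0 on both axes.

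At one end, some members reached the set2Δ level in both point mutants. Antisense THI72, opposite a gene of the thiamine transporter family, was at 23.8 FPKM in set2Δ, 27.0 in set2-Y149F, 28.5 in set2-Y236F and 1.20 in WT. Antisense FLO10, opposite a flocculin, was at 43.1, 39.3, 37.5 and 2.09 FPKM. Antisense SAG1, opposite the agglutinin of α cells, was at 57.5, 50.3, 52.9 and 8.49 FPKM. At these genes both point mutants were close to the deletion and far from WT.

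The same held at antisense AAP1 (19.1, 17.0, 18.8 and 1.89 FPKM in set2Δ, set2-Y149F, set2-Y236F and WT), DNL4 (33.3, 32.5, 31.5 and 10.7) and YDR061W (12.3, 12.8, 15.6 and 3.52). AAP1 encodes an aminopeptidase and DNL4 the DNA ligase of end joining. A mean gain of 80% or more was reached by 18 of all 220 members, where 72 of all 777 listed transcripts (9.27%) reached it. By length, it was 8 of 107 members under 1500 bp, 2 of 74 from 1500 bp and 8 of 39 from 2000 bp. Across the 220 members Spearman's correlation between length and mean gain was 0.05, so the gain did not rise steadily with length.

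At the other end, antisense ELP2, opposite an Elongator subunit, was at 21.8 FPKM in set2Δ, 3.0 in set2-Y149F, 2.97 in set2-Y236F and 2.73 in WT. Antisense IRE1, opposite the sensor of unfolded proteins in the endoplasmic reticulum, was at 21.0, 2.27, 2.56 and 1.63 FPKM. Antisense LYS2, opposite an enzyme of lysine synthesis, was at 3.95, 0.169, 0.0820 and 0.110 FPKM. These transcripts were well above WT in the deletion and close to it in both point mutants, and antisense LYS2 was below the median level of the members in set2Δ.

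A group of 9 members began within 50 bp after the stop codon of an annotated gene on their own strand, as did 22 of all 777. They are antisense AIR2, CEG1, YIR007W, RIM8, FRE1, TRM82, KAR3, PEX10 and HEH2, which followed GID12, RSM23, PRI1, RNA15, CDC123, SEC5, TAZ1, HEL2 and TOM1 at 1 to 22 bp. The group was formed after the values had been seen and gets no test. Its median was 11.8 FPKM in set2Δ, 5.33 in set2-Y149F, 5.67 in set2-Y236F and 4.08 in WT, against 9.78, 3.48, 3.47 and 0.958 FPKM in the other 211 members.

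The ratio of set2Δ to WT in these 9 ran from 1.90 to 4.22 with a median of 2.64, against a median of 10.1 in the others. None of the 9 was called higher than WT in either point mutant, where 33.7% of all listed transcripts were in each. Antisense PEX10, which began 2 bp after HEL2, was at 15.6 FPKM in set2Δ, 5.54 in set2-Y149F, 7.13 in set2-Y236F and 7.39 in WT. Antisense TRM82, 3 bp after SEC5, was at 12.4, 6.22, 7.49 and 6.52 FPKM. These are the 2 members of the 9 in which a point mutant lay below WT. Of the 6 members not called between set2Δ and WT, 3 (TRM82, PEX10 and YIR007W) belong to the group, which holds 4.09% of all members.

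The genes in front of them differed less: HEL2 was at 42.0, 39.0, 34.7 and 45.2 FPKM in set2Δ, set2-Y149F, set2-Y236F and WT, and SEC5 at 31.6, 30.0, 27.7 and 27.2. The distance was counted from the stop codon, so reads of the untranslated 3′ end of the gene in front may be included. Such reads, reads that run on past that gene and reads that begin at its end cannot be told apart in these values.

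Antisense YPL216W was another member apart, and the most abundant one in WT. It was at 50.2 FPKM in set2Δ, 45.3 in set2-Y149F, 44.2 in set2-Y236F and 31.8 in WT, a ratio of 1.58 between set2Δ and WT, the lowest of all members. Antisense HEH2 (55.2, 29.5, 33.8 and 24.3 FPKM), RIM8 (46.5, 31.9, 27.7 and 17.6), RLM1 (60.6, 28.2, 35.0 and 17.0) and PPN1 (60.0, 26.2, 27.4 and 13.8) followed it in WT level. So an abundant antisense RNA opposite these genes was present with Set2 intact.

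Where 2 members lay opposite the same gene, they were compared within it. Opposite BPT1, a vacuolar bile pigment transporter, the transcript farther from the stop codon was at 28.8 FPKM in set2Δ, 6.72 in set2-Y149F, 4.86 in set2-Y236F and 1.16 in WT. The one that began near the stop codon was at 4.26, 2.73, 3.37 and 0.558 FPKM. Their gains were 20.1% and 13.4% for the first and 58.8% and 76.0% for the second, in set2-Y149F cells and set2-Y236F. The gains thus differed between these transcripts in the strain means, and those of the second rest on low levels.

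The members opposite MET30 overlapped each other, and the shorter had the lowest set2Δ level of all members, at 0.408 FPKM, against 7.89 for the longer. Those opposite ATG2 also overlapped, at 2.32 and 9.53 FPKM in set2Δ, and the methods do not say how reads were divided between overlapping transcripts. The pair opposite FLO11 lay apart from each other, at 12.2 and 16.8 FPKM, and that opposite PSD2 overlapped by a few bases, at 5.91 and 13.3 FPKM.

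Next, each member was set against its sense gene within a strain. Cuffdiff is named for the antisense FPKM and no program for those of annotated genes, so antisense and sense values may not be on the same scale. The antisense FPKM was above the sense FPKM in 38 of 220 members in set2Δ (17.3%, where 6.44% of all listed transcripts were). The count was 13 in set2-Y149F (5.91%, where 2.45% of all were), 15 in set2-Y236F (6.82%, where 2.57% of all were) and 2 in WT (0.909%, where 0.257% of all were). In set2Δ this was so for 5 of 107 members under 1500 bp, 12 of 74 from 1500 to under 2000 bp and 21 of 39 from 2000 bp.

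Antisense PSP2 was the most abundant of all members, at 107 FPKM in set2Δ, 37.2 in set2-Y149F, 41.0 in set2-Y236F and 12.9 in WT. PSP2 itself was at 25.2, 21.0, 16.0 and 31.2 FPKM, so the antisense strand led in each mutant and not in WT. Antisense COX10, opposite an enzyme of haem A synthesis, was at 36.9 FPKM in set2Δ against 2.19 in WT, and COX10 at 6.61 against 10.5. Antisense MTR4 at 56.8 FPKM stood over MTR4 at 23.2 in set2Δ, and under it in set2-Y149F, set2-Y236F and WT.

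In WT only antisense YPL216W (31.8 FPKM, with 5.37 for YPL216W) and antisense YLR124W (7.59, with 2.46 for YLR124W) were above their sense genes. Antisense FLR1, FUR4, RIM15, GIC1, FLO5, SAG1, FLO10, YLR124W, PSP2, DNL4, THI72, YPL216W and COX10 were above them in both point mutants, and NNK1 and one member of FLO11 in set2-Y236F alone.

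**Figure D5:**
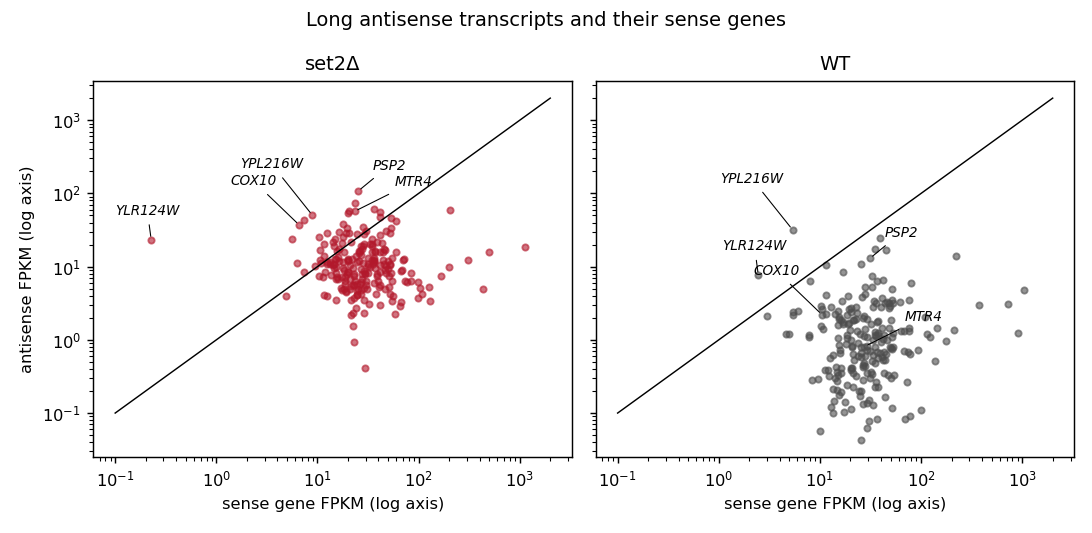
FPKM of the sense gene (x axis, log) and of the long antisense transcript opposite it (y axis, log) in set2Δ (left) and WT (right), 220 points each. The line marks equal values, and 38 points lie above it in set2Δ and 2, YLR124W and YPL216W, in WT.

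The sense genes themselves differed little between strains. Of the 215 sense genes, 3 were called higher in set2Δ than in WT (1.40%, where 2.88% of all 6632 annotated rows were) and 2 were called lower (0.930%, where 1.19% were), so 5 were 2-fold apart (2.33%, where 4.07% of all rows were). FIG2, a cell wall protein of mating cells, was at 29.8 FPKM in set2Δ, 12.4 in set2-Y149F, 9.40 in set2-Y236F and 12.7 in WT. PCA1 was at 30.4, 14.5, 13.4 and 10.8 FPKM and FLO10 at 7.29, 5.68, 5.07 and 3.02. FIG2 stood out in set2Δ alone, at a gene whose antisense RNA was at 8.29, 0.695, 0.576 and 0.121 FPKM.

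The genes called lower in set2Δ were HXT2, a glucose transporter, at 432.5 FPKM in set2Δ, 1073 in set2-Y149F, 657 in set2-Y236F and 902 in WT, and YLR124W at 0.227, 1.60, 1.30 and 2.46 FPKM. Antisense HXT2 was at 4.99, 1.98, 2.86 and 1.23 FPKM. These 5 genes are ones that the study itself picked from these samples, so their directions are not independent evidence.

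In set2-Y149F, 2 sense genes were called higher than in WT (where 3.57% of all rows were) and 7 lower (2.07%), or 9 in all (4.19%, where 5.64% of all rows were). In set2-Y236F, 4 were called higher (3.47%) and 3 lower (1.87%), or 7 in all (3.26%, where 5.34% of all rows were). PST1, a cell wall protein, was at 201 FPKM in set2Δ, 286 in set2-Y149F, 230.2 in set2-Y236F and 109 in WT, and RIM8, of the pH response, at 53.8, 85.5, 82.8 and 35.2. Both were called higher in each point mutant.

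PLB2, a phospholipase, was at 28.2 FPKM in set2Δ, 16.1 in set2-Y149F, 14.7 in set2-Y236F and 50.4 in WT. GIC1, an effector of Cdc42, was at 6.29, 4.14, 4.28 and 11.4 FPKM. Both were called lower in each point mutant, as was YBL081W. No sense gene was called between the point mutants, where 0.618% of all rows were.

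The median log2 difference of the sense genes, counted once per member, was -0.02 in set2Δ, -0.08 in set2-Y149F cells and -0.19 in set2-Y236F relative to WT, and that of all annotated rows was -0.07, -0.04 and -0.02. Members that ran past the start codon lay opposite genes with a median of -0.03 in set2Δ, and those that ended inside opposite genes with 0.02. Across the members, Spearman's correlation between the antisense and the sense difference of set2Δ from WT was 0.13, a description over 220 points that share the same libraries.

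Gene lists by function show where the long members lie, and each is given as genes with a long antisense transcript out of the genes measured. Of all 6632 annotated rows, 215 were paired with a long member and 687 with a listed transcript of any length. Among signalling kinases it was 5 of 45 (RIM15, CLA4, BCK1, HSL1 and CBK1), of which 18 had a listed antisense transcript of any length. Antisense BCK1, opposite the kinase at the head of the cell integrity cascade, was at 7.99 FPKM in set2Δ, 2.06 in set2-Y149F, 2.11 in set2-Y236F and 0.105 in WT. Antisense CLA4, opposite a kinase of bud growth, was at 9.56, 1.29, 1.40 and 0.808 FPKM. Of the 5, 2 were called higher than WT in each point mutant, where 33.7% of all listed transcripts were.

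Among genes of DNA replication, repair and checkpoints it was 6 of 66 (POL3, RTT107, POL1, MEC1, MSH6 and RAD2), with 20 of any length, although antisense POL1 lies mostly opposite AVT4. Antisense MEC1, opposite the checkpoint kinase, was at 9.61 FPKM in set2Δ, 7.87 in set2-Y149F, 6.37 in set2-Y236F and 0.279 in WT. Antisense POL3, opposite the catalytic subunit of DNA polymerase δ, was at 9.73, 3.3, 2.32 and 0.303 FPKM. The gains in set2-Y149F cells and set2-Y236F were 81.3% and 65.2% at antisense MEC1, and 31.8% and 21.4% at antisense POL3. The median gain of the 6, as the mean of both mutants, was lower, at 18.1%.

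Of 38 RNA helicase genes, MTR4, BRR2 and SEN1 had a long member. Antisense BRR2, opposite a helicase of the spliceosome, was at 21.5 FPKM in set2Δ, 3.23 in set2-Y149F, 3.18 in set2-Y236F and 0.821 in WT. Antisense SEN1, opposite a helicase of transcription termination, was at 6.45, 0.968, 0.856 and 0.229 FPKM. The median gain of the 3 was 11.0%, while 2 of them were called higher than WT in each point mutant (33.7% of all listed transcripts were).

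Of 31 nucleoporin genes, NUP159, NUP100 and NUP1 had a long member. Antisense NUP159 was at 20.9 FPKM in set2Δ, 2.75 in set2-Y149F, 3.35 in set2-Y236F and 0.684 in WT, and antisense NUP1 at 23.5, 18.7, 20.2 and 6.28. Of 16 P-type ATPase genes, DRS2, DNF3 and PCA1 had one. Antisense DNF3, opposite a lipid flippase, was at 12.8, 1.49, 1.09 and 0.112 FPKM.

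Genes of adhesins and wall synthesis had long members at 5 of 23 (FIG2, FLO11, SCW11, FLO5 and FLO10), which gave 6 transcripts. Of the 6, 3 were called higher than WT in each point mutant, where 33.7% of all listed transcripts were, and the median level was 23.1 FPKM in set2Δ and 2.14 in WT. Of 20 ABC transporter genes, BPT1 and MDL1 had one. Antisense MDL1, opposite a mitochondrial peptide exporter, was at 17.4, 12.2, 15.0 and 1.08 FPKM in set2Δ, set2-Y149F, set2-Y236F and WT.

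The remaining lists are given by their counts alone. Long members lay opposite 3 of 38 genes of vesicle tethering and vacuolar sorting (VTH2, VPS53 and VPS34), 3 of 29 of ubiquitin ligases and deubiquitinases (UBP5, UBP2 and DOA4) and 2 of 39 of chromatin (IOC2 and HDA1). There was 1 each among the 15 motor genes (KAR3), 19 tRNA synthetases (KRS1), 22 large biosynthetic enzymes (LYS2) and 32 genes of meiosis and sporulation (CST9, whose transcript lies mostly opposite ATP10). None lay opposite the 15 karyopherin genes. The lists differ in gene length and expression, and nothing is called particular to any of them.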

How the data were processed

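Strand-specific RNA-seq of 12 libraries (3 per strain) was used as deposited. The submitters' processing notes and the methods name Trimmomatic 0.38, TopHat2 2.1.1, the sacCer3 build, SAMtools 1.10, bedtools 2.29.2, Cufflinks 2.2.1, Cuffdiff and HTSeq 0.13.5. The authors deposited 1 mean FPKM per strain for 6632 annotated rows and 777 antisense transcripts, with no depth per library. The authors' comparison lists hold the position and the width in bp (a coordinate length, used for the choice of members), and fold changes and p-values against WT, which were not used. Their deposited log2 CPM was used only to check the order of names: in the FPKM sheet the antisense names as printed gave a Pearson correlation of -0.00184 between log2 of mean FPKM times width and log2 CPM, and names sorted alphabetically gave 0.904, so the sorted order was used. The 5 sheets held no column of values per library.

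Differences were taken on log2(FPKM + 1) and called at 2-fold, over whole tables. As 1 mean per strain allows no fit across libraries, there are no p-values. Positions, neighbours and sequences came from RefSeq R64, which is the sacCer3 build, and 219 of 220 members had their sense gene there. Python 3.11.15, pandas 2.3.3, NumPy 2.4.6, SciPy 1.17.1 and Matplotlib 3.10.9 were used, and the calls were tested on simulated data. The members and the 17 gene lists were chosen with earlier results of these data known. HDA3 of the chromatin list was not used here, and 1 list and 1 transcript near the length limit are not reported here.

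Named by rule were the 8 longest members, the 8 largest differences of set2Δ from WT, the 5 highest in WT, the 5 highest and 5 lowest gains at 5 FPKM or more in set2Δ, the 5 largest differences between the point mutants in each direction, members whose sense gene was 2-fold apart in set2Δ, the 5 largest sense differences each way in each point mutant, genes the paper names, genes with 2 members, the 3 transcripts on either side of 1200 bp and up to 4 of each list. Others were named after their values had been seen. Alternatives were pseudocounts of 0.1 and 10, a filter at a mean of 1 FPKM, length limits of 1000 and 1500 bp and 2 scalings. Others were 1 member per gene, an overlap of at least 50% and no annotated gene on the transcript's own strand.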

Additional observations from a re-analysis of the deposited data

How the results depend on the processing

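Each share below is of the members or their sense genes, and the reported values stand in brackets after the alternatives. With a pseudocount of 0.1, 10, or antisense medians set equal between strains, the share called higher than WT was 99.1%, 33.2% and 24.1% in set2Δ (reported 97.3%), 78.6%, 5.45% and 11.8% in set2-Y149F cells (55%) and 78.6%, 6.82% and 11.8% in set2-Y236F (52.7%). The share called lower than set2Δ was 65.0%, 9.55% and 6.82% in set2-Y149F cells (57.7%) and 64.1%, 11.8% and 15.0% in set2-Y236F (57.3%). Equal antisense medians remove by construction a difference common to all listed transcripts, and put the median gain at 49.8% in set2-Y149F cells and 49% in set2-Y236F (27.4% and 27.4%). With members of 1500 bp or more, the shares called higher than WT were 62.8% in set2-Y149F cells and 59.3% in set2-Y236F, the 5′ end lay inside the coding region in 76.8% (82.6%), and the antisense FPKM was above the sense FPKM in set2Δ in 29.2% (17.3%), the last an alternative chosen after seeing the data. With an overlap of at least 50%, the share in set2-Y236F was 61.4% and its gain 33.9%. With a pseudocount of 10, sense genes 2-fold apart from WT were 0.465% in set2Δ (2.33%), 1.40% in set2-Y149F cells (4.19%) and 1.40% in set2-Y236F (3.26%). The other 96 of 122 alternative values moved by less than the 95% interval of the reported value. That interval is taken over members, which are not replicates of a strain. The 96 include a setting without own-strand genes, which removed no member and so could not move any value. No paired analysis was possible because the columns hold 1 mean per strain, and for the same reason no replicate could be left out. What remains unknown is the spread between libraries and their depth, which limits every low FPKM value.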
